A study of Mus musculus with 4 samples.

Results

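The nuclear genes for the subunits of the mitochondrial respiratory chain and ATP synthase were examined in germinal vesicle stage oocytes, the meiotically arrested egg cells of the mouse ovary. The members were every gene whose symbol begins with Nduf, Uqcr, Atp5, Cox4, Cox5, Cox6, Cox7 or Cox8, together with Sdha, Sdhb, Sdhc, Sdhd and Cyc1. This gave 96 genes of 17374 listed, with 178 of 45505 listed transcripts, and 0 pseudogenes had to be left out. RNA-seq was available for 4 libraries of pooled oocytes from non-primed females of a C57/Bl6/DBA2J F1 hybrid background at postnatal day 16. In 2 control libraries the oocytes were not irradiated, and in 2 irradiated libraries they had received 5 Gy of γ-irradiation from a Cesium-137 source 24 h earlier. All oocytes were freed of cumulus cells, held in medium with milrinone to keep them from resuming meiosis, and stripped of the zona pellucida. The series' text describes control oocytes as sequenced directly, so an effect of irradiation and one of the culture that followed it cannot be told apart from the labels.

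Oxidative phosphorylation passes electrons from NADH and succinate to oxygen and uses the proton gradient so formed to make ATP. Complex I oxidizes NADH, complex II (succinate dehydrogenase) joins the chain to the citric acid cycle, complex III passes electrons to cytochrome c, complex IV (cytochrome c oxidase) reduces oxygen, and complex V (ATP synthase) makes ATP with its F1 head, turned by the Fo membrane rotor. The growing oocyte takes up little glucose of its own and lives largely on pyruvate supplied by follicle cells, which is oxidized in its mitochondria. The subunits encoded in mitochondrial DNA lie outside the rule.

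Several regulators that bind upstream of these genes in many tissues have short recognition motifs, and the upstream sequence was searched for them because the members were to be compared as 1 group. RefSeq windows of 300 bases on GRCm38.p6 (250 before and 50 after a start site) were matched by gene ID. Windows were found for 77 members and 27025 genes in all, and both strands were searched. The 27025 genes are more than the 17374 listed in these oocytes, and no comparison with expressed genes alone was made. The NRF1 motif GCGCATGC, which can overlap its own copy on the other strand, GCATGCGC, was found for 12 members (15.6%) and 3.05% of all genes with a window. The ETS motif CCGGAAG, bound by the GABP factors, was found for 19 members (24.7%) against 9.93%, and the YY1 motif AAGATGGC for 11 (14.3%) against 3.19%. At least 1 of these motifs stood in 35 members and 2 of them in 7. Shown are the 250 bases before a start site of the most abundant member that held each motif within those 250 bases. Ndufv1, a core gene of complex I described below in which these letters were not found, is shown as well. The Atp5j window precedes a start site inside the annotated gene, which spans chr16:84827871-84835857. All read 5′ to 3′ on the strand of the gene, which is the minus strand for each, and capitals mark the motifs. They lie at chr5:108434400-108434649 (Atp5k, NRF1 on both strands, positions -50 to -41 before the start), chr2:174464102-174464351 (Atp5e, ETS on the other strand, -102 to -96), chr16:84834977-84835226 (Atp5j, YY1 at -88 to -81 and ETS at -61 to -55) and chr19:4012756-4013005 (Ndufv1).
Atp5k: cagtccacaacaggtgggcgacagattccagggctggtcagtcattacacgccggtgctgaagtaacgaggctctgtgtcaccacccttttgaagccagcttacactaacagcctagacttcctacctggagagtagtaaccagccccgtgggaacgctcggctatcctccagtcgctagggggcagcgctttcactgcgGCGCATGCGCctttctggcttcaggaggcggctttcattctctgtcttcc
Atp5e: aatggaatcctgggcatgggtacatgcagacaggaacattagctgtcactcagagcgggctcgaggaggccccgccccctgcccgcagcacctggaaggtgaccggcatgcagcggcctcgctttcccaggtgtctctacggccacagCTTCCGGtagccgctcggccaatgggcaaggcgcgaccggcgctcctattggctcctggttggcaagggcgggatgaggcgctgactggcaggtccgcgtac
Atp5j: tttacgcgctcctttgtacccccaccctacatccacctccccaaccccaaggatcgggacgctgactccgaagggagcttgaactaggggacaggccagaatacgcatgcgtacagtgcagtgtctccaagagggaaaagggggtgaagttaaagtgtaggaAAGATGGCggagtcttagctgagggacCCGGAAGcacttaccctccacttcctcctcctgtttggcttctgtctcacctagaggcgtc
Ndufv1: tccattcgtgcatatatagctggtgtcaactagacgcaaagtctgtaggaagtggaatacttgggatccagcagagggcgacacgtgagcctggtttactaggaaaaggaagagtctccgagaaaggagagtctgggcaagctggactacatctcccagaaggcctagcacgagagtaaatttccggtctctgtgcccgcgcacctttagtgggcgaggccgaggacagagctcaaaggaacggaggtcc

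The oocytes carried these mRNAs at high levels. Levels are given in TPM, a unit that corrects for transcript length and has the same total in every library, summed per gene and averaged over the 4 libraries unless stated otherwise. The mean level was over 1 TPM for 94 members, over 100 TPM for 66 (68.8%, against 6.73% of all listed genes) and over 1000 TPM for 8, of 162 such genes in all. Among genes over 1 TPM the median was 194 TPM for the members and 8.48 TPM for all 9435 genes. The members together held 3.52% and 3.53% of all TPM in control and 3.28% and 3.32% in irradiated oocytes, so the groups did not overlap. The means were 3.52 ± 0.0126% and 3.30 ± 0.0282% (SD, n = 2 each), and the exact two-sided permutation test gave p = 0.333, the smallest value that 2 against 2 libraries allow. Of the estimated counts, which are not corrected for transcript length, the members held 1.24% and 1.26% in control and 1.16% and 1.15% in irradiated oocytes. In bulk samples, a smaller share of oocytes rich in these mRNAs and less of them per oocyte cannot be told apart.

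By median TPM, the Fo and stalk genes of ATP synthase and the genes of cytochrome c oxidase held the highest levels. The median was 513 TPM over 12 Fo and stalk genes and 382 TPM over 20 complex IV genes, against 239 TPM over 31 accessory genes of complex I, 212 TPM over 9 of complex III, 181 TPM over 5 of F1, 147 TPM over 4 of complex II and 98.6 TPM over the 7 core genes of complex I. The 8 complex I assembly factors, which build the enzyme without remaining in it, had a median of 49.0 TPM. Each class spanned a wide range, and the catalytic subunits were often not the abundant ones. In F1, the central stalk gene Atp5e reached 2843 TPM, the highest of all members and rank 48 of all genes, whereas Atp5b, the catalytic beta subunit, had 181 TPM and Atp5a1, the alpha subunit, 80.4 TPM. In complex III, Uqcrh, the hinge protein beside cytochrome c1, had 1317 TPM and Cyc1, cytochrome c1 itself, 17.8 TPM. In complex I, the accessory gene Ndufa2 had 1295 TPM and Ndufs1, the core subunit with several of the iron-sulfur clusters, 7.01 TPM. Sdha, the flavoprotein of complex II, had 19.8 TPM and its iron-sulfur partner Sdhb 177 TPM.

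**Figure D1:**
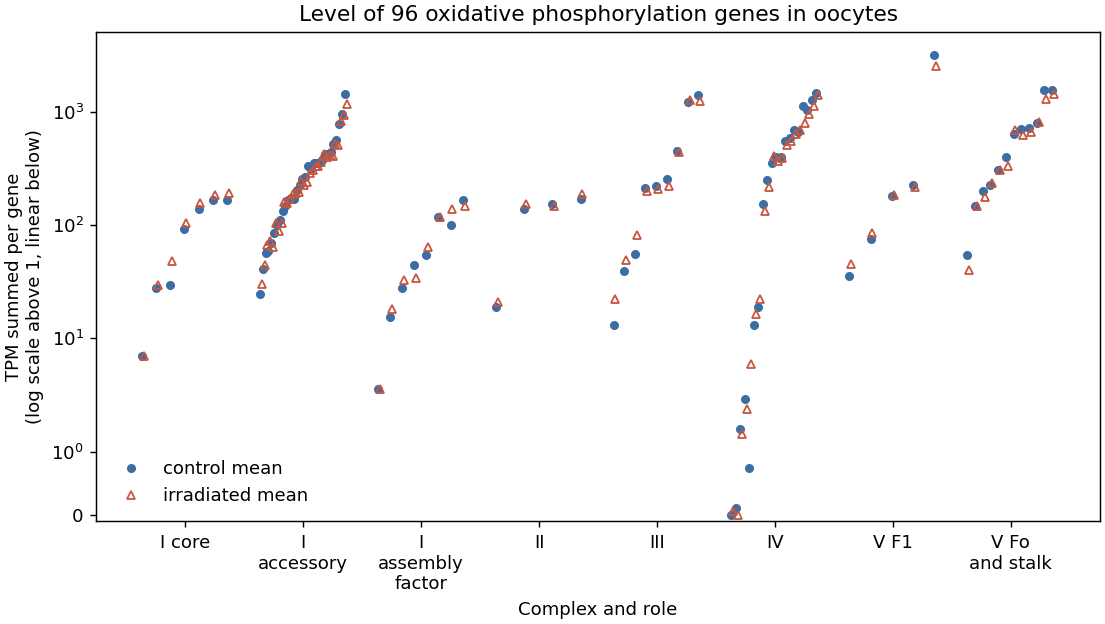
Mean TPM per gene (vertical axis, log scale above 1) for the 96 members by complex and role (horizontal axis), with the mean of 2 control libraries as dots and that of 2 irradiated libraries as triangles. Atp5e stands highest at 2843 TPM over all libraries, and the genes of complex IV run from 0.0300 to 1432 TPM.

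The 10 most abundant members came from complexes I, III, IV and V. Atp5e had 3095 and 3241 TPM in control libraries 1 and 2 and 2838 and 2197 TPM in irradiated libraries 1 and 2. Atp5j2, the f subunit of Fo, had 1599.7, 1472, 1383 and 1489 TPM in the same order, and Atp5h, the d subunit of the stalk, 1500.2, 1576, 1409 and 1157 TPM. For Atp5e and Atp5h both irradiated libraries lay below both controls, and for Atp5j2 irradiated library 2 lay above control library 2. Cox5a had 1453, 1484, 1407 and 1385 TPM and Cox4i1, a subunit that lies against the catalytic core of the oxidase, 1260.2, 1271, 1194 and 1029 TPM. Uqcrh had 1429.9, 1348, 1359 and 1132 TPM, and Uqcr11, a small subunit of the same complex, 1250.5, 1168, 1195 and 1309 TPM. The groups overlapped for both genes of complex III. Ndufa2 had 1475, 1382, 1376 and 946 TPM, Cox7c 989.7, 1071, 881 and 1036 TPM, and Cox6c 1035, 1221, 910.1 and 664 TPM. Irradiated library 2 held the lowest TPM of Atp5e, Atp5h, Cox5a, Cox4i1, Uqcrh, Ndufa2 and Cox6c, but the highest of Uqcr11.

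Where a subunit exists as paralogs used in different tissues, the generally expressed form made up most of the level in the Cox4i, Cox6a, Cox7b and Cox8 families. Cox4i2, the form known from lung, held 1.52% and 1.46% of the Cox4i level in control libraries 1 and 2 and 1.32% and 2.67% in irradiated libraries 1 and 2. Cox6a2, the form of heart and skeletal muscle, held 2.95%, 3.49%, 3.32% and 4.67% of the Cox6a level in the same order. Cox7b2 and Cox8b had at most 1 count in any library, and Cox8c held between 0.251% and 0.712% of the Cox8 level, so that Cox7b and Cox8a made up nearly all of their families. In the others the level was divided. Cox6b2, the form known from testis, held 27.7%, 27.8%, 29.1% and 23.6% of the Cox6b level, with 154, 153, 150.0 and 114 TPM. Cox7a2 held 61.3%, 62.8%, 60.9% and 54.4% of the Cox7a level and Cox7a2l, which joins respiratory complexes into supercomplexes, 38.5%, 37.0%, 39.0% and 45.4%, while the muscle form Cox7a1 held at most 0.205%. Atp5g1, Atp5g2 and Atp5g3 encode the same mature c subunit of the Fo rotor from different genes. Atp5g1 held 76.6%, 74.9%, 75.1% and 81.8% of their level, Atp5g2 16.6%, 18.8%, 18.7% and 15.0%, and Atp5g3 6.72%, 6.23%, 6.25% and 3.15%. In each divided family the 2 control libraries and irradiated library 1 lay close together and irradiated library 2 lay apart.

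**Figure D2:**
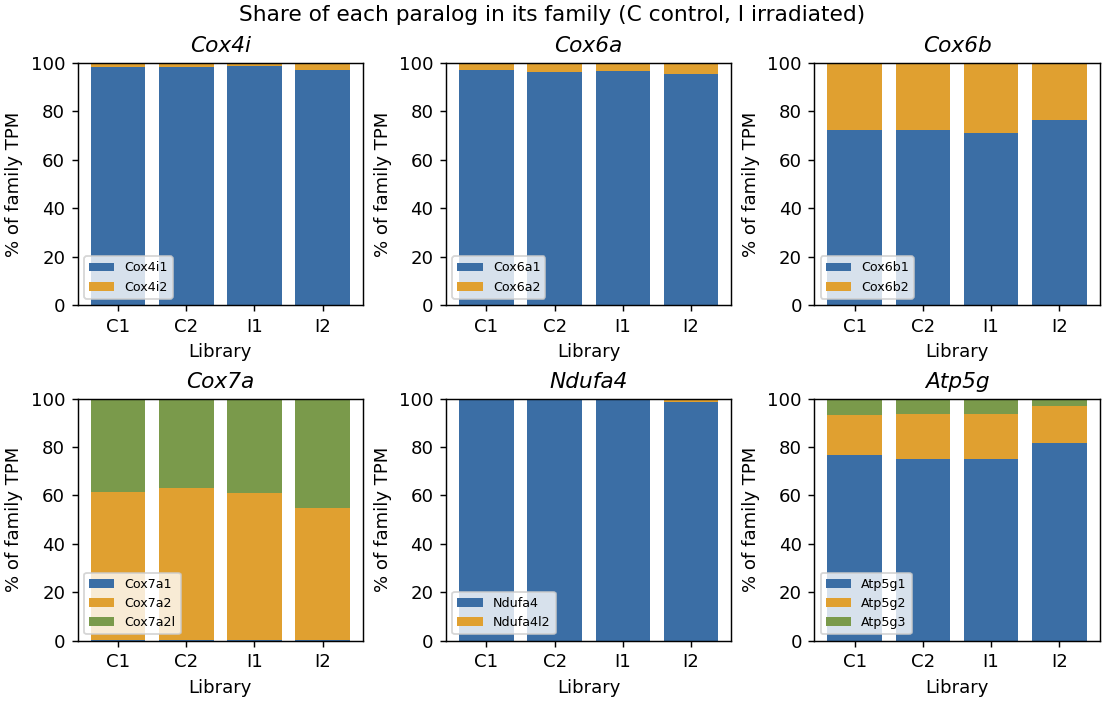
Share of each paralog in the summed TPM of its family (vertical axis, percent) in control libraries C1 and C2 and irradiated libraries I1 and I2 for 6 families. The Cox6b, Cox7a and Atp5g levels are divided among paralogs, and I2 differs from the other libraries, for example 54.4% Cox7a2 against 60.9 to 62.8%.

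The libraries held 37232818 and 33349466 estimated counts (controls) and 35350906 and 34532230 (irradiated). All 15 oocyte markers checked were present in every library, at a sum of 54877, 55424, 55547 and 49525 TPM. The granulosa and cumulus markers, of which 10 of 15 were listed and 6 or 7 exceeded 3 counts in a library, summed to 17.8, 20.2, 17.6 and 24.5 TPM, led by Cyp19a1 at 528 to 543 counts and Nr5a2 at 382 to 702, while Gja1 and Has2 had 0 to 2. The markers of theca, stroma and blood, of which 4 of 10 were listed and 2 or 3 exceeded 3 counts, summed to 4.04, 5.22, 4.21 and 6.12 TPM. Irradiated library 2 thus had the lowest oocyte sum and the highest sums of the other lists, but single markers went both ways. In TPM, Dppa3 (22942, 21911, 20596 and 16142), Zp2, Gdf9, Bmp15, Oosp1, Mos and Padi6 were lowest there. Zp1, Zp3, Nobox, Zar1 and Ddx4 were highest there. Of the more abundant granulosa and cumulus markers, Fshr, Cyp19a1, Cyp11a1 and Nr5a2 were highest there and Kitl lowest. Pecam1 (3.85, 4.98, 3.99 and 5.79) made up most of the last sum. The part of these markers in the values of the members was not tested.

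Irradiated library 2 also stood apart in the members themselves. The counts in this paragraph were not taken over all genes, so they do not show that its departure was particular to the members. Of 94 members over 1 TPM, 3 differed by more than 1.25-fold between the control libraries and 4 and 8 between them and irradiated library 1, whereas 39, 34 and 42 differed between irradiated library 2 and control 1, control 2 and irradiated library 1. For comparison between libraries, counts were scaled with TMM factors, which set the bulk of all genes level between libraries. On that scale 93 members, those that passed a minimum count of 10, were tested, and their log2 difference from the control mean had a median of -0.0873 in irradiated library 1, with 76 members below 0. In irradiated library 2 the median was -0.35 with 77 below 0, and 30 members lay more than 0.5 away, against 2 in irradiated library 1. The count was 0 in either control, which is not a like count, since each control is part of the mean it was set against. The TMM factors were 0.923, 0.975, 0.937 and 1.19, so that irradiated library 2 was also the one scaled most. The direction of its median depended on the scale. In log2(TPM + 1) over 94 members, the median difference of irradiated library 2 was 0.0674 from control 1 and 0.0332 from control 2. For irradiated library 1 it was -0.0770 and -0.0901.

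**Figure D3:**
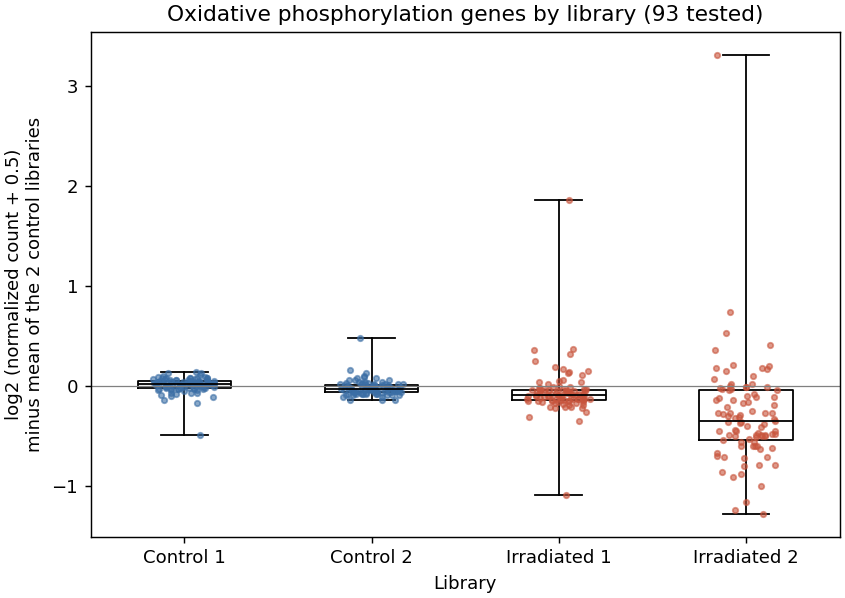
Log2 normalized count minus the mean of the 2 controls (vertical axis) for each of 93 tested members (dots) in the 4 libraries (horizontal axis), where boxes show quartiles and medians and whiskers the full range. The median falls at -0.0873 in irradiated library 1 and -0.35 in irradiated library 2, which has the wider spread of these 2. In log2(TPM + 1) the median difference of irradiated library 2 from each control was positive instead. Each control is part of the mean it is set against, which narrows its spread.

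The comparison of irradiated with control oocytes asks whether the mRNAs of oxidative phosphorylation differed 24 h after the dose. Most members had a negative log2 fold change on the scale of TMM-normalized counts, and none passed the test of edgeR. The majority were also negative on the other scales given below, by a smaller margin. With edgeR's quasi-likelihood test, a gene was called where its Benjamini-Hochberg adjusted p was under 0.05 and its log2 fold change exceeded 2 in size. Of 93 members 0 were called, and the lowest adjusted p was 0.708, where 1 of 12569 genes was called (0.00796%). At an unadjusted p under 0.05, 3 members were higher (4.63% of all genes were) and 1 was lower (1.29% of all genes were), and DESeq2 and the exact test of edgeR called 1 member each, of 4 and 10 genes called in all (0.023% and 0.0796%). The median log2 fold change, irradiated over control, was -0.21 for the members (quartiles -0.30 and -0.0498) and 0.0102 for all genes. It was above 0 for 14 members (15.1%, against 51.4% of all genes). Both irradiated libraries lay below both controls for 51 members and above both for 6, where 19.8% and 22.1% of all genes did so. Without irradiated library 2 the median of the members was -0.0871, with 4 members higher and 6 lower at an unadjusted p under 0.05 (5.57% and 4.44% of all genes were). Without irradiated library 1 it was -0.36, with 5 higher and 60 lower, where 20.2% and 21.3% of all genes were. Scaling by library size alone moved the median of all genes to 0.17 and left 36 members above 0, and limma on log2(TPM + 1) moved it to 0.14 and left 44 above 0. Relative to all genes the median of the members was -0.22 as reported, -0.23 by library size and -0.16 by TPM.

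The difference followed the level of the gene, among members and among other genes alike. The 66 members over 100 TPM had a median log2 fold change of -0.26, with 2 above 0, while the 27 tested members up to 100 TPM had a median of -0.0116, with 12 above 0. Among the 1104 other genes over 100 TPM the median was -0.17 and 21.6% lay above 0, and among the 11372 other genes up to 100 TPM it was 0.0335. The abundant members therefore lay -0.0925 from the median of other abundant genes, a smaller distance than from all genes. Across the 93 members log2 TPM and log2 fold change were correlated with Pearson's r = -0.45 and Spearman's rho = -0.49, and with r = -0.40 and rho = -0.47 without Ndufa4l2. This is a description across genes of the same 4 libraries, which are not independent points, and the level was computed from the same libraries as the fold change.

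**Figure D4:**
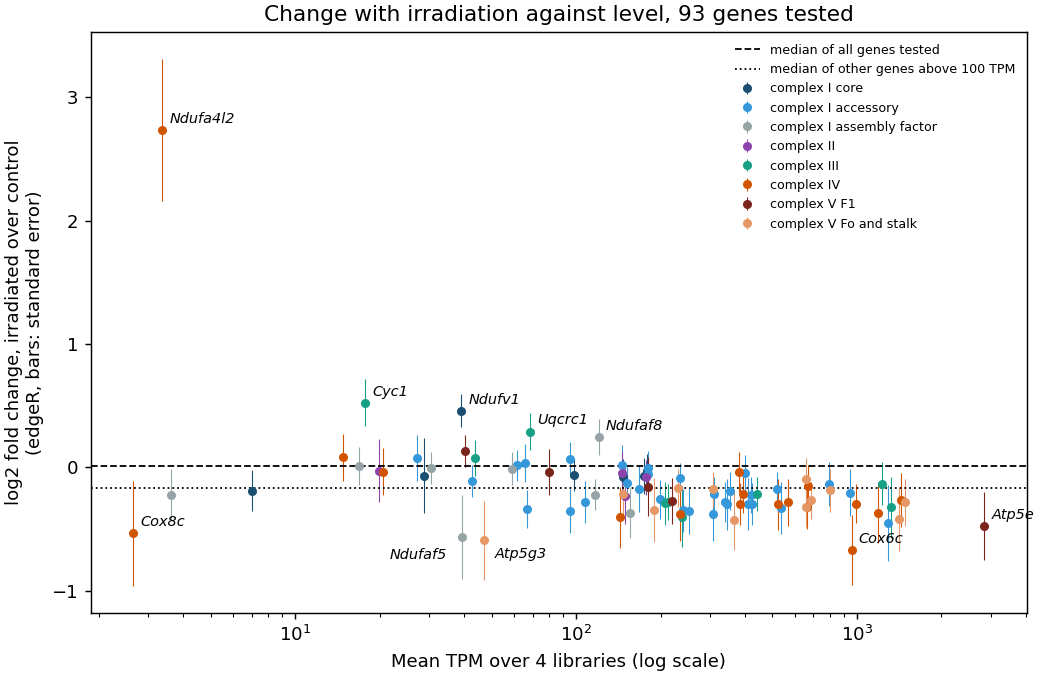
Log2 fold change, irradiated over control, with its standard error (vertical axis) against mean TPM (horizontal axis, log scale) for 93 tested members coloured by complex and role. Most members over 100 TPM lie below the dotted median of other abundant genes (-0.17), with a median of -0.26, and Ndufa4l2 stands alone at 2.74.

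By complex, the median log2 fold change was -0.30 for 17 tested genes of complex IV, -0.28 for 12 Fo and stalk genes, -0.21 for 9 genes of complex III and 31 accessory genes of complex I, -0.16 for 5 genes of F1, -0.12 for 8 assembly factors, -0.0691 for the 7 core genes of complex I and -0.0664 for the 4 of complex II. Complex IV had 12 genes with both irradiated libraries below both controls and 1 above, the Fo and stalk genes 9 and 0, and the accessory genes of complex I 18 and 0. Over all genes 19.8% lay below and 22.1% above. Of the 1104 other genes over 100 TPM, 440 lay below and 105 above. Complex IV and the Fo and stalk genes, the classes with the highest median TPM, had the lowest median log2 fold changes. By limma on log2(TPM + 1) their medians were -0.11 each, and those of the core genes of complex I and of complex II were 0.14 and 0.13. Relative to the median of all genes on the same scale, these 4 medians were -0.25, -0.25, -0.00399 and -0.00979. The differences between complexes were not tested.

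In complex I, Ndufv1, the subunit that binds NADH and the flavin, had 1150.0 and 1143 normalized counts in control and 1486 and 1664 in irradiated oocytes. The groups were apart, with means of 1147 ± 4.62 and 1575 ± 126 (SD, n = 2 each). The log2 fold change was 0.46 ± 0.13 (SE), with an adjusted p of 0.708 in edgeR, and it was 0.37 without irradiated library 2. Ndufs1 had 497, 457, 468 and 370.3 normalized counts, and its groups overlapped. Ndufaf5, which adds a hydroxyl group to the core subunit Ndufs7, had 1356, 1216, 1211 and 530.4 normalized counts, a log2 fold change of -0.57 ± 0.34, and Ndufaf8, its partner protein, 898, 805, 919 and 1095, a log2 fold change of 0.24 ± 0.15. For Ndufaf5 the difference rested on irradiated library 2, since library 1 lay next to control library 2 and the value was -0.0861 without library 2, and neither gene passed the test (adjusted p of 0.708 for each).

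In complex II, no gene was apart from control in the same direction in TPM and in normalized counts. Sdha had 1469.7, 1259, 1702 and 975 normalized counts and Sdhb 4142, 4057, 4010.3 and 3730.3, with log2 fold changes of -0.0298 ± 0.26 and -0.0829 ± 0.14. Sdha had its highest and its lowest value in the 2 irradiated libraries. The direction of both genes turned to positive with library size alone, at 0.0893 and 0.0724.

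In complex III, both irradiated libraries lay above both controls for 2 of 9 genes and below both for 4, beside the shares of all genes given above. Cyc1 had 388 and 426 normalized counts in the controls and 484 and 683 after irradiation, and its log2 fold change was 0.52 ± 0.19, with an adjusted p of 0.708. Uqcrc1, a core protein of the complex, had 2238, 2223, 2474 and 2976 normalized counts and a log2 fold change of 0.29 ± 0.15. Both genes were highest in irradiated library 2, and without it the log2 fold changes were 0.25 for Cyc1 and 0.15 for Uqcrc1. The Rieske iron-sulfur protein gene Uqcrfs1 had 1172, 1213, 1134 and 1378 normalized counts, and the groups overlapped. Its log2 fold change of 0.0749 ± 0.15 became -0.0724 without irradiated library 2. The abundant small subunits Uqcrh and Uqcr11 had log2 fold changes of -0.33 ± 0.25 and -0.13 ± 0.18.

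In complex IV, the largest difference of any member was that of Ndufa4l2, a paralog of the oxidase subunit Ndufa4 known as a target of the hypoxia-inducible factor HIF-1. It had 10.2 and 20.6 normalized counts in the controls and 54.2 and 149 after irradiation, equal to 0.480, 1.00, 2.59 and 9.39 TPM. Both irradiated libraries lay above both controls, and the irradiated libraries differed widely from each other. The log2 fold change was 2.74 ± 0.58, and the adjusted p was 0.708 by quasi-likelihood in edgeR, 0.0144 in DESeq2 and 0.00472 in edgeR's exact test. Over all alternatives its adjusted p ranged from 1.85e-25 to 0.784, and its fold change was 1.82 on the log2 scale with irradiated library 2 left out. Ndufa4 had 6053, 5770.2, 5347 and 4107 normalized counts and a log2 fold change of -0.32 ± 0.18, so Ndufa4l2 made up 0.0685%, 0.145%, 0.412% and 1.46% of the level of the pair.

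Cox6c, a small membrane subunit of the oxidase, was the member with the largest negative log2 fold change. It had 9122 and 10433 normalized counts in the controls and 7911 and 4387 after irradiation, a log2 fold change of -0.67 ± 0.28 with an adjusted p of 0.708 in edgeR. Both irradiated libraries lay below both controls, and with irradiated library 2 left out the value was -0.30. Cox4i1 had 19585, 18868, 18012 and 11769.5 normalized counts and Cox5a 20637, 20154, 19439 and 14502, with log2 fold changes of -0.37 ± 0.25 and -0.27 ± 0.22. For both, irradiated library 1 lay nearer to the controls than to irradiated library 2, and without library 2 the values were -0.0935 and -0.0686. Cox8c had 20.5, 26.0, 10.6 and 20.7 normalized counts and a log2 fold change of -0.54 ± 0.43, and its groups overlapped. Its value was -1.12 without irradiated library 2 and -0.18 without library 1. The paralogs Cox7a1 (6, 9, 4 and 9 counts), Cox7b2 and Cox8b did not reach the minimum count and were not tested.

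In complex V, all 12 genes of the Fo and stalk class had a negative log2 fold change on the TMM scale, from -0.59 to -0.0972, while 1 was positive by library size alone and 3 by limma on TPM. Atp5g3 had 833, 735, 710.4 and 332 normalized counts and a log2 fold change of -0.59 ± 0.32, while Atp5g1, the main source of the same protein, had 10990.1, 10166, 9888 and 9889.7 and a log2 fold change of -0.0972 ± 0.17. Irradiated library 2 alone was far from the others for Atp5g3. Atp5e had 19578 and 20135 normalized counts in the controls and 17946 and 10587 after irradiation, a log2 fold change of -0.48 ± 0.28. Both irradiated libraries lay below both controls for Atp5e, and its adjusted p was 0.708 in edgeR. With irradiated library 2 left out the log2 fold change was -0.15 for Atp5e and -0.14 for Atp5g3, and with library 1 left out it was -0.92 and -1.25. Atp5a1 had 4753, 4493, 5194 and 3827 normalized counts and Atp5b 8306, 8158, 9075 and 5683. For these catalytic genes irradiated library 1 was the highest and irradiated library 2 the lowest, with log2 fold changes of -0.0358 ± 0.19 and -0.16 ± 0.24.

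**Figure D5:**
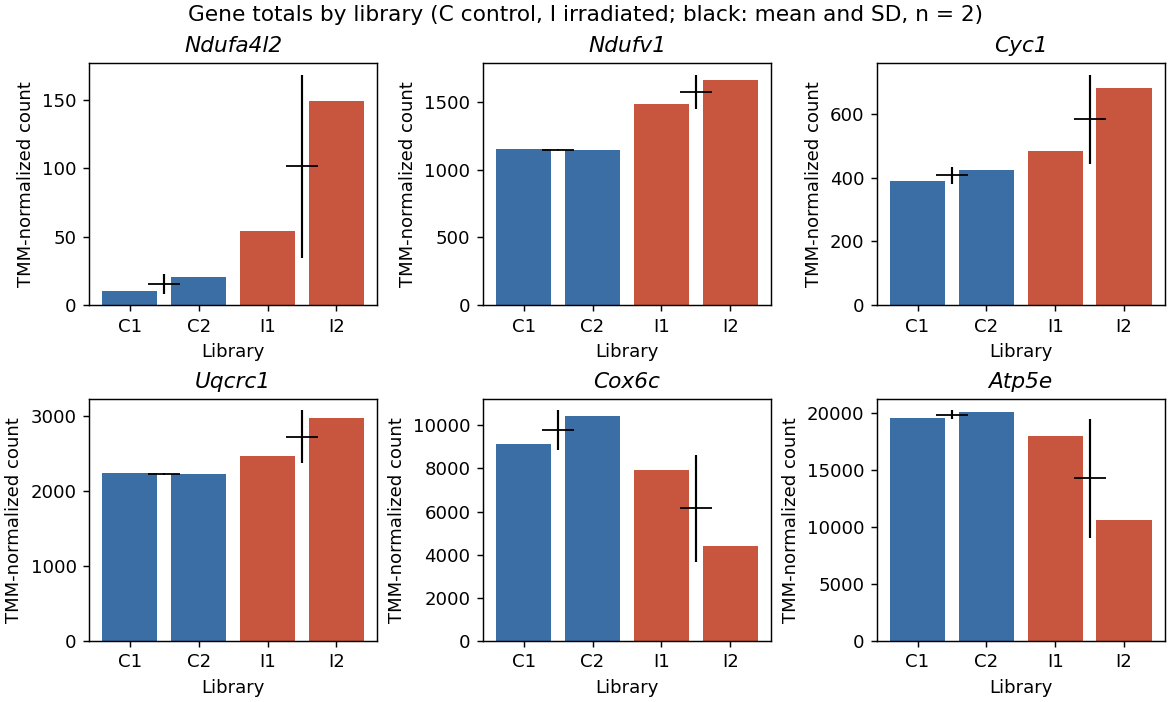
TMM-normalized counts (vertical axes, from 0) in control libraries C1 and C2 and irradiated libraries I1 and I2 for 6 members, with the mean and SD of each condition in black (n = 2). Ndufa4l2, Ndufv1, Cyc1 and Uqcrc1 are higher and Cox6c and Atp5e lower in both irradiated libraries, and I2 is the further of these from control in every panel.

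At the level of transcripts, 55 members had 1 listed transcript and 41 had several. Of 147 member transcripts tested 0 were called by edgeR, DESeq2 or the exact test, and at an unadjusted p under 0.05 edgeR gave 1 higher and 0 lower. Over all 26645 transcripts edgeR called 0 (0%), with 1306 at an unadjusted p under 0.05, while the exact test called 247, and DESeq2, fitted to all 45505 listed transcripts, called 246. The member transcripts with the smallest p belonged to Ndufv1, Atp5g3, Cyc1, Ndufs4 and Cox7c, with log2 fold changes of 0.48, -0.63, 0.75, -0.32 and -0.28. When the division of a gene among its transcripts was tested (isoform usage), 0 of 33 members were called and 0 had an unadjusted p under 0.05, where 16 of 6323 genes were called (0.253%). The other tests of usage, limma's diffSplice and the F test of edgeR, also called 0 members. Over all 6323 genes they called 0 and 58. Only 1 of the 178 member transcripts had over 50 counts in a library and at most 3 in another, against 2896 of all 45505 listed transcripts. It was the known transcript of Ndufa4l2, with 0, 19, 51 and 173 counts, and in control library 1 the 10 counts of this gene were placed on a predicted transcript that had 0 in the other libraries. The sum over the gene does not depend on that placement.

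The fold change of members with a motif was set beside that of members without it. The median log2 fold change was -0.22 for members with the NRF1 motif and -0.18 for those without it, -0.22 and -0.19 for the ETS motif, and -0.13 and -0.21 for the YY1 motif. Of the genes printed, Atp5k had a log2 fold change of -0.27 ± 0.15, Atp5e of -0.48 ± 0.28, Atp5j of -0.17 ± 0.15 and Ndufv1 of 0.46 ± 0.13. Ndufv1 was picked by name and does not stand for the members without a motif. Members with a motif went both ways, as with the NRF1 motif in Uqcrc1 at 0.29 and in Atp5k at -0.27. The medians with and without a motif are descriptions, and their differences were not tested.

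Genes that build or control the complexes but lie outside the naming rule were read from the same fit. Of 43 assembly factors 42 were listed and 41 tested, with a median log2 fold change of 0.0043, 22 above 0, and 0 called in edgeR and 0 in either direction at an unadjusted p under 0.05. The values ran from -0.61 for Foxred1, a complex I factor with 15 to 23 counts, to 0.53 for Timmdc1, a complex I factor with 5.00, 5.36, 5.31 and 12.7 TPM. Of 16 regulators and genes of mitochondrial DNA maintenance 15 were tested, with a median of -0.0485, and 0 passed in the same ways. Nrf1, which encodes the factor that binds the NRF1 motif, had 25.0, 24.8, 28.0 and 40.6 TPM, and Tfam, the mitochondrial DNA packaging factor, 11.9, 12.4, 12.1 and 14.0 TPM. The coactivator Ppargc1a had 12 to 19 counts and the nuclear receptor Esrra 0 or 1. All 15 genes of the citric acid cycle and cytochrome c were tested, with a median of -0.0810, 4 above 0 and 0 called or past an unadjusted p of 0.05. Cycs, cytochrome c itself, had 198, 207, 179 and 224 TPM. Atpif1, which encodes the inhibitor of ATP synthase, had 248, 245, 220.0 and 245 TPM and a log2 fold change of -0.30 ± 0.16.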

How the data were processed

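RNA was taken from pooled germinal vesicle oocytes and selected with oligo(dT). Per the paper's methods and the submitters' processing notes, quality-trimmed paired reads of 100 bp were aligned to GRCm38 (mm10) with Bowtie2. The notes also name HISAT2 and RSEM, without versions. For every RefSeq transcript the authors deposited estimated counts per library, not scaled for depth, and TPM values, which allow for transcript length and share 1 total. The table's other 10 value columns (FPKM and averages) were not used.

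Both were summed per gene, symbols and coordinates came from RefSeq GRCm38.p6 (17323 of 17374 gene IDs matched), and libraries were grouped by their labels. For 10 members the summed count was not whole (tolerance 0.05), because reads had been shared with other genes. Rounded counts entered edgeR 4.0.16 under R 4.3.3 (TMM, filterByExpr at a minimum count of 10, glmQLFit and glmQLFTest, no block, Benjamini-Hochberg adjustment over all features), and isoform usage with diffSpliceDGE and Simes' method. Alternatives used DESeq2 1.42.0, limma 3.58.1 and the exact test of edgeR. The tests weigh the difference between conditions against the variation between libraries, estimated from 2 libraries a condition with information shared across genes. The paper's methods describe 2 independent experimental replicates. They do not say whether a control and an irradiated library with the same number came from the same one. If they did, the main fit leaves that pairing out, and a fit with the replicate number as a block is given below. The scripts were tested on simulated data with known changes. Named were the 10 most abundant members, the paralog families, the 5 largest fold changes each way, members with an unadjusted p under 0.05, the 5 transcripts with the smallest p, and core subunits with the ATPase inhibitor. Other members and genes of the pathway were named as examples after their values were seen. The members and lists were chosen with earlier results of these data known. Plots were made in Python 3.11.15 using matplotlib 3.10.9.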

Additional observations from a re-analysis of the deposited data

How the results depend on the processing

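Over all genes, edgeR called 1 as reported. It called 0 with library size alone, 3 without a count filter, 7 with the replicate number as a block and 10 with its exact test, while DESeq2 called 4 and limma 0 by voom and 0 on log2(TPM + 1) with or without a filter. Leaving out 1 library gave 16 to 84, with the lone library assumed to vary like the others. Members higher at an unadjusted p under 0.05 numbered 1 to 5 with a library left out, and members lower numbered 0 to 60, 2 without a filter, 0 on unfiltered TPM and 8 with the replicate block. The median log2 fold change of the members was -0.0607 with library size alone, -0.0108 on TPM and -0.0127 on unfiltered TPM, with 36, 44 and 45 members above 0, and -0.36 to -0.0871 with a library left out. Relative to all genes it was -0.38 to -0.0897 with a library left out. The difference in the share held by the members, -0.223 percentage points of TPM, was -0.0941 of counts. Transcripts called were 246 with DESeq2 and 247 with the exact test, against 0. The block led to a call of Ndufa4l2 (adjusted p = 0.00433) and to no other member call. With the block, 1299 of 12569 genes had an unadjusted p under 0.05 in either direction, against 744 as reported. Of 93 members, 3 were higher and 8 lower with the block, so the rise was not confined to the members. Without a filter, 1197 of 17374 genes had such a p, and 3 of 96 members were higher and 2 lower. Same-numbered libraries deviated together with r = 0.0975 over 12569 genes and 0.44 over 93 members, and 2 pairs do not show that the numbers pair the libraries.

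Fold changes near 0 turned sign. Ndufs1 was 0.0150 on TPM. Sdha was 0.0893 with library size alone, 0.14 on TPM and -0.50 to 0.32 with a library left out. Sdhb was 0.0724 and 0.13 in the first 2. Atp5a1 was 0.10 and 0.17, and -0.28 to 0.17 with a library left out. Atp5b was 0.0246 on TPM and -0.55 to 0.14 with a library left out, and Uqcrfs1 -0.0724 to 0.20. Why these turned was not tested. With 2 libraries a condition, and 1 of them apart from the rest, small differences of single genes could not be separated from the spread between libraries.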

Other observations

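Members whose reads are shared with near-identical genes were read with that limit. Ndufb4, an accessory gene of complex I, had 518, 514, 480.1 and 559 TPM (control 1, control 2, irradiated 1, irradiated 2). Its copies Ndufb4b and Ndufb4c had 26.4, 22.4, 23.7 and 36.3 TPM and 96.6, 105, 91.7 and 86.2 TPM. In irradiated library 2 the level of Ndufb4b was the highest of the 4 and that of Ndufb4c the lowest, and since the division of reads among the 3 genes was estimated, their separate values are uncertain. The complex I subunit Ndufb11 had 747, 796, 694 and 948 TPM under the same limit.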
